A study of Mus musculus with 7 samples.

Results

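The genes described here are 37 genes of mitosis and the cell cycle, taken from a list of names, and 36 of the 37 were measured among the 19937 genes that a single-symbol probe set represented. Each gene was read from the probe set with the highest mean log2 intensity. Ccnb1, the gene of cyclin B1, was matched to no such probe set and was not analysed here. The measured genes encode the mitotic cyclins and their kinase (Cdk1, Ccna2, Ccnb2, Cks2, Cdc25c), the G1/S cyclins and E2F factors (Ccne1, Ccne2, E2f1, E2f2, E2f8), enzymes of nucleotide synthesis (Rrm2, Tyms) and the mitotic transcription factor Foxm1. They also encode mitotic kinases and checkpoint proteins (Aurka, Aurkb, Plk1, Bub1, Bub1b, Ttk, Nek2, Cdc20), centromere and kinetochore proteins (Cenpa, Cenpe, Cenpf, Birc5) and spindle motors and midzone proteins (Kif11, Kif20a, Kif23, Kif2c, Tpx2, Nusap1, Prc1). Cytokinesis proteins (Anln, Ect2) and proteins of the mitotic chromosome (Mki67, Top2a) complete the list.

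Cells that divide make these transcripts in a fixed order. Cyclin E and the E2F factors drive the entry into S phase, in which thymidylate synthase and ribonucleotide reductase supply nucleotides, and the genes of the spindle, the kinetochore and cytokinesis are switched on later, in G2 and mitosis, with the help of Foxm1. Resting cells hold little of most of them, so in a mixed sample their level depends on how many of the cells are dividing. The medullary epithelium of the thymus is renewed continually, and dividing cells are found in its compartment with high MHC class II. Thymocytes and developing B cells also divide and use the same genes.

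The samples were sorted medullary epithelial cells of the NOD thymus, in the fraction with high MHC class II, profiled as total RNA on 1-colour Affymetrix arrays. The 4 reconRAG1KO samples, named as the control by the series, came from mice with null RAG1, the recombinase of lymphocytes. The 3 reconSCID samples came from NOD mice that carry the SCID mutation of DNA-PK, a kinase that acts in the joining of broken DNA ends in most cell types. Without transferred marrow, both strains lack mature thymocytes. All mice had been irradiated with 200 rad as pups of 2 to 4 days, had received bone marrow into the peritoneum 6 h later, and were analysed 6 to 8 weeks after the transfer. The labels name neither the genotype of the marrow donors nor the number of thymi in a sample, and an effect of the mutation on the tissue cannot be told apart from a different response of the mutant to irradiation. The samples are called biological replicates, and p-values measure the spread between them.

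The array sets have to be known before any value is read. ReconRAG1KO replicate 4 and reconSCID replicate 2, called the smaller set here, had a correlation of 0.972. The other 5 arrays, the larger set, correlated at 0.976 to 0.990, and pairs across the sets at 0.922 to 0.947. The labels name no batch, and because each set held both groups, differences are given without the array set and with it as a block. Median intensities lay between 88.6 and 96.3 per array, and the number of arrays limits the precision. The probe set of Xist, a transcript of female cells, measured 9.96 in reconRAG1KO replicate 2, 8.02 in reconSCID replicate 1 and 9.61 in reconSCID replicate 3, and 5.11 to 6.22 in the others, and sex was in none of the fits. Markers of the labelled cell type were high, and so were some of other cells. Transcripts of the epithelial keratin gene Krt5 measured 9.36 to 12.05 and those of Aire, the regulator of tissue antigens, 9.73 to 11.93, while the macrophage lysozyme gene Lyz2 measured 11.53 to 13.23 and the T cell gene Cd8a 7.92 to 9.65.

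No cell cycle gene differed between reconSCID and reconRAG1KO after adjustment. By limma, 0 of 36 were called at an adjusted p under 0.05, as was 0% of all 19937 genes, and the adjusted p of each of the 36 was 1. At the unadjusted threshold of 0.05, 0 of 36 lay above and 0 below, where 0.863% and 1.19% of all genes were. Of the 36 genes, 26 had a positive difference (reconSCID minus reconRAG1KO, log2 scale) and 10 a negative one, against 47.5% positive among all genes. The median difference was 0.08 for the 36 genes and -0.01 for all genes, and the values ran from -0.31 (Cdc25c) to 0.51 (Cenpe). In these bulk samples a different number of dividing cells and a different amount of RNA per dividing cell cannot be told apart.

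Much of the spread lay between the array sets. ReconRAG1KO replicate 4 was alone the lowest of the 7 arrays in 28 of 36 cell cycle genes and in 14.4% of all genes, and reconSCID replicate 3 was alone the highest in 16 and in 15.3% of all genes. In the smaller set 30 of 36 were lower than in the larger set, where 36.1% of all genes were, with medians of -0.34 and 0.12 on the log2 scale. Marker lists differed between the sets as well: 0 of 12 epithelial markers were lower in the smaller set (median 0.97), 1 of 7 endothelial and fibroblast markers (1.03), 11 of 12 thymocyte and T cell markers (-0.88), 9 of 9 dendritic cell and macrophage markers (-1.02), 6 of 7 B cell markers (-0.51) and 5 of 5 neutrophil markers (-1.75). The widely expressed genes Ppia and Rpl9 had -1.04 and -1.50. The part of these differences in the values of the cell cycle genes was not tested. Cks2, the gene of a small subunit that binds the mitotic kinase and named here after its values were seen, stood farthest apart. It measured 8.50, 8.49, 8.55 and 5.62 in reconRAG1KO and 8.53, 5.46 and 8.62 in reconSCID. Its values followed the array set and not the group, and the smaller set minus the larger gave a log2 difference of -3.00. Ccnb2 and Bub1 were the others past 1 log2 unit, at -1.34 and -1.28. A level lower by over 1 log2 unit in the smaller set was found in 5.22% of all genes.

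**Figure D1:**
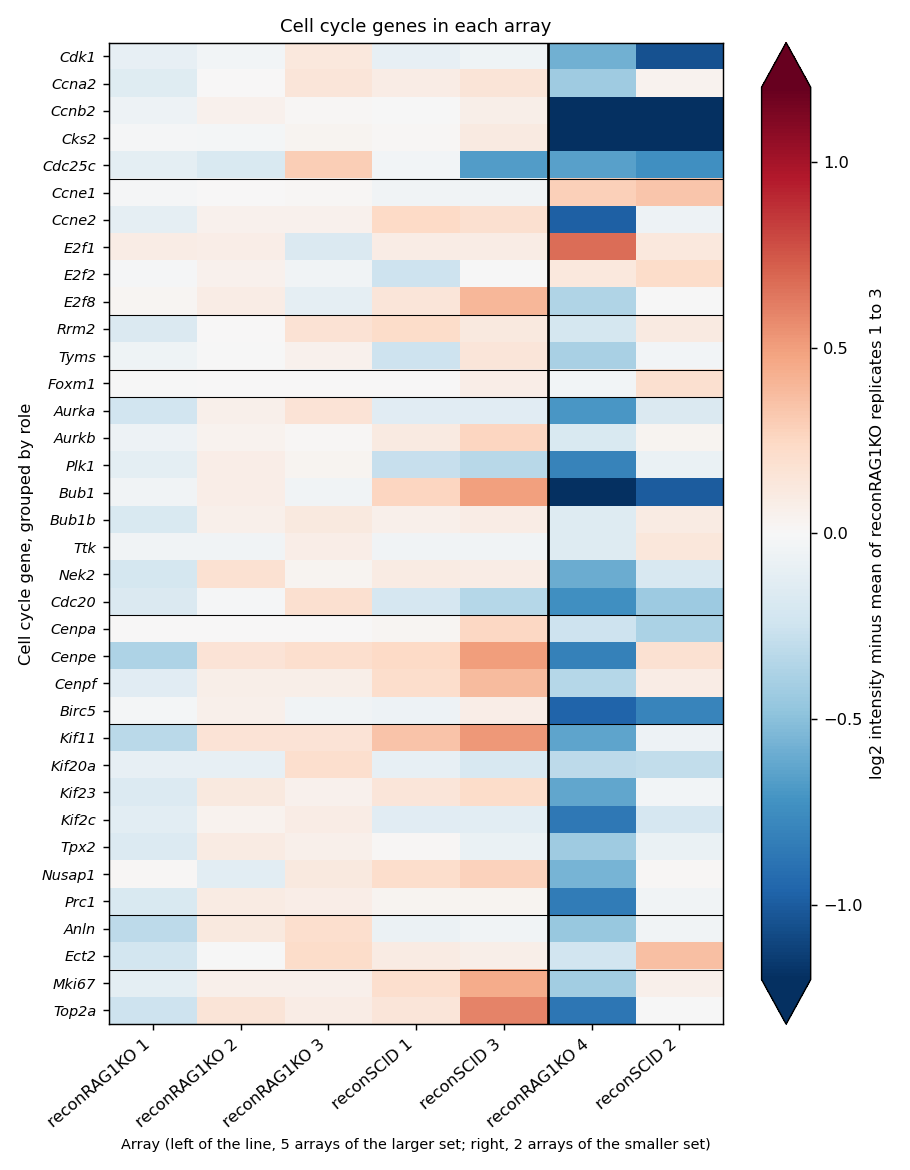
Log2 intensity of each of the 36 cell cycle genes (rows, grouped by role) in each array (columns), as the difference from the mean of reconRAG1KO replicates 1 to 3, with the scale ending at 1.2 in both directions. The 2 arrays right of the line hold the lowest values of Cks2, Ccnb2 and Bub1, and reconRAG1KO replicate 4 is the lowest array in 28 of the 36 genes.

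Both genes of the mitotic chromosome had positive differences. Mki67 encodes Ki-67, which coats mitotic chromosomes and marks dividing cells. It measured 9.35, 9.53, 9.53 and 9.05 in reconRAG1KO (9.37 ± 0.23, SD, n = 4) and 9.67, 9.53 and 9.91 in reconSCID (9.70 ± 0.19, SD, n = 3). ReconSCID replicates 1 and 3 lay above every control, and replicate 2 was level with the highest controls. The difference was 0.34, with a 95% interval from -0.04 to 0.71. Top2a, the gene of the topoisomerase that untangles sister chromatids, measured 8.80, 9.21, 9.14 and 8.19 in reconRAG1KO and 9.20, 9.04 and 9.65 in reconSCID. The groups overlapped, with the lowest value in reconRAG1KO replicate 4 and the highest in reconSCID replicate 3. Its difference was 0.46 (interval -0.20 to 1.13). A further Top2a probe set lay near the bottom of the scale, at means of 3.19 and 3.26.

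Among centromere and kinetochore genes, Cenpf separated the groups without overlap. Cenpf encodes a large protein of the outer kinetochore, and was named after its values were seen. It measured 6.94, 7.14, 7.14 and 6.74 in reconRAG1KO and 7.29, 7.17 and 7.46 in reconSCID. The difference was 0.31 (95% interval -0.01 to 0.64). Cenpf was the 1 gene of the 36 whose reconSCID values all lay above the reconRAG1KO values, 0 lay below, and the shares over all genes were 1.23% and 1.54%. Cenpe, the gene of a kinetochore motor that carries chromosomes to the spindle equator, measured 6.72, 7.26, 7.29 and 6.28 in reconRAG1KO and 7.33, 7.27 and 7.59 in reconSCID. Only reconRAG1KO replicate 3 reached into the reconSCID range. The difference of Cenpe was 0.51, the largest of the 36, with an interval from -0.12 to 1.14. Cenpa, the gene of the histone variant that marks centromeres, measured 8.44 in reconRAG1KO replicates 1, 2 and 3 and 8.19 in replicate 4, and 8.46, 8.06 and 8.68 in reconSCID. Its difference was 0.03, and Birc5, the gene of survivin, had -0.02.

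Of the 7 genes of spindle motors and midzone proteins, 6 had positive differences. Kif11 encodes the motor that pushes the spindle poles apart. It measured 7.28, 7.77, 7.77 and 6.98 in reconRAG1KO and 7.95, 7.55 and 8.13 in reconSCID. The difference was 0.42 (-0.16 to 1.01). ReconSCID replicates 1 and 3 lay above all controls and replicate 2 between them. Tpx2, the gene of the protein that activates Aurora A on the spindle, measured 7.96, 8.21, 8.18 and 7.69 against 8.14, 8.04 and 8.04, a difference of 0.06. The other 5 ran from -0.12 for Kif20a, a motor of the central spindle, to 0.30 for Nusap1, a protein that bundles spindle microtubules.

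The 8 genes of mitotic kinases and the checkpoint split in sign. Bub1, a kinase of the spindle checkpoint, measured 7.30, 7.41, 7.30 and 6.09 in reconRAG1KO and 7.60, 6.33 and 7.82 in reconSCID. Within each array set the reconSCID values were above the controls, while over all 7 arrays the groups overlapped and the difference of 0.23 had a 95% interval of -0.88 to 1.34. Cdc20, the activator of the anaphase-promoting complex, measured 8.46, 8.63, 8.83 and 7.90 in reconRAG1KO and 8.44, 8.21 and 8.30 in reconSCID. Here reconSCID replicates 1 and 3 lay below the 3 controls of their array set. Its difference was -0.14 (interval -0.66 to 0.38) and that of the polo kinase gene Plk1 was -0.03. The other 5 of this group had differences from 0.02 (Aurka) to 0.18 (Aurkb).

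**Figure D2:**
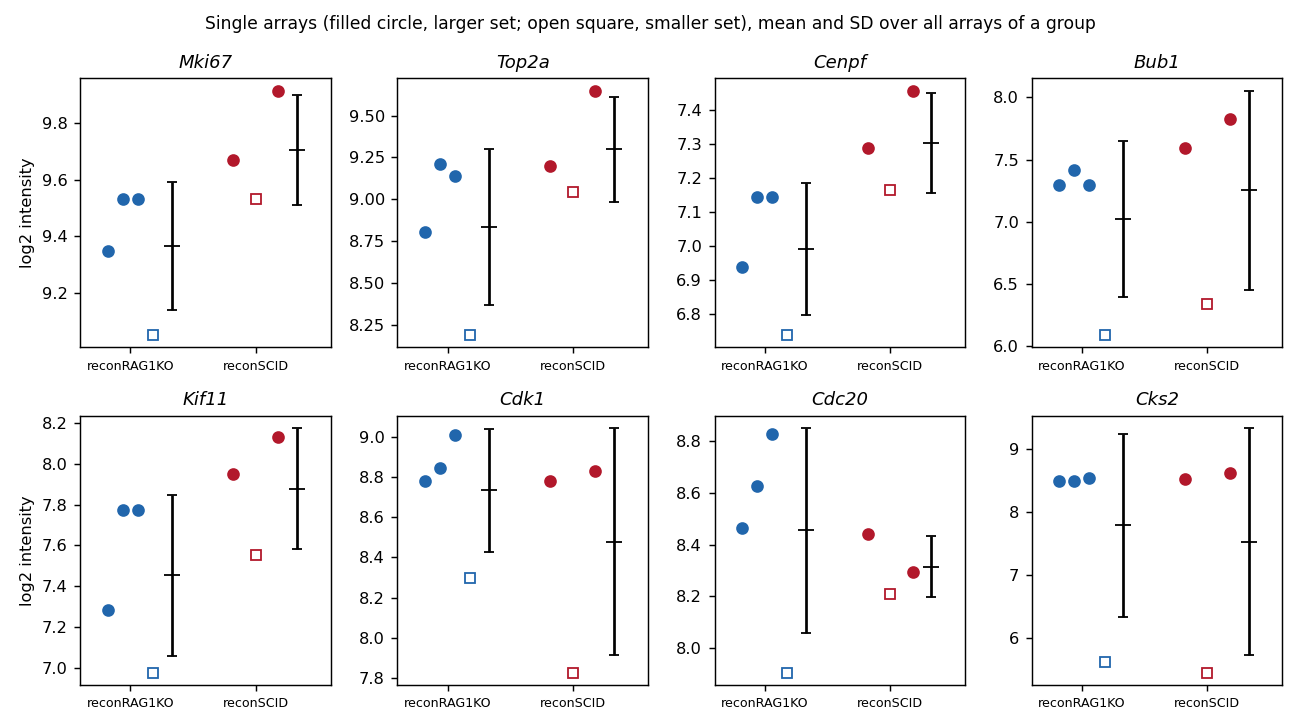
Log2 intensity of 8 cell cycle genes in each array, reconRAG1KO in blue and reconSCID in red, with filled circles for the larger array set, open squares for the smaller set, and a bar for the mean ± SD over all arrays of a group (n = 4 and n = 3). Each panel has its own axis, which does not start at 0. Mki67 of reconSCID replicates 1 and 3 lies above all controls, while the Cks2 values differ by array set and not by group.

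Of the 5 measured genes of the mitotic kinase and its partners, 4 had negative differences, or 3 once the array set was a block. Cdk1, the kinase that starts mitosis, measured 8.78, 8.84, 9.01 and 8.30 in reconRAG1KO and 8.78, 7.83 and 8.83 in reconSCID. ReconSCID replicate 2 was the lowest array, and the difference was -0.25 (interval -0.94 to 0.44). Ccna2, the gene of cyclin A2, measured 8.74, 8.89, 9.03 and 8.46 against 8.97, 8.93 and 9.04. The difference of Ccna2 was 0.20 (-0.14 to 0.55). Cdc25c, the phosphatase that activates the kinase, measured 7.34, 7.28, 7.75 and 6.81 against 7.43, 6.73 and 6.79. Its groups overlapped and its difference, -0.31 (interval -0.94 to 0.31), was the lowest of the 36. Ccnb2 and Cks2 had differences of -0.08 and -0.25, and the 3 probe sets of Cks2 gave -0.25, -0.34 and -0.10.

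Of the 5 genes of S phase entry, 3 had positive differences, as did both genes of nucleotide synthesis. Ccne1, the gene of cyclin E1, measured 7.53, 7.54, 7.55 and 7.82 in reconRAG1KO and 7.50, 7.88 and 7.50 in reconSCID. Both arrays of the smaller set were its highest, and the difference was 0.01 (interval -0.31 to 0.34). Ccne2, the gene of cyclin E2, measured 5.96, 6.13, 6.13 and 5.09 against 6.31, 6.01 and 6.26. The difference of Ccne2 was 0.37 (-0.28 to 1.01). Ccne2 and the checkpoint kinase gene Ttk were the 2 genes with a mean level below the median of all probe sets. Of the E2F factors, which switch S phase genes on or, for E2f8, off, E2f1, E2f2 and E2f8 had -0.07, -0.04 and 0.27. Rrm2, a subunit of ribonucleotide reductase, measured 8.27, 8.45, 8.62 and 8.23 against 8.66, 8.55 and 8.56. Its difference was 0.20 (interval -0.08 to 0.48) and the thymidylate synthase gene Tyms had 0.05. Foxm1 measured 6.85, 6.86, 6.86 and 6.83 against 6.86, 7.05 and 6.94, a difference of 0.10. Ect2, the exchange factor that places the cleavage furrow, measured 7.92, 8.13, 8.36 and 7.91 against 8.24, 8.49 and 8.21, a difference of 0.23, and the furrow scaffold gene Anln had 0.06.

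When the array set was a block, 11 of the 36 genes were higher in reconSCID at an unadjusted p under 0.05 and 0 were lower, where 5.34% of all genes were higher and 6.75% lower. The 11 were Mki67, Top2a, Cenpe, Cenpf, Kif11, Kif23, Nusap1, Aurkb, Bub1, E2f8 and Ccne2. None passed after adjustment, by limma, with adjusted p-values from 0.2645 upward, and 0% of all genes passed. Of the 36, 27 had a positive blocked difference, against 45.6% of all genes, and the median was 0.10. Mki67 was 1.29-fold higher (log2 0.37, interval from 0.14 to 0.59), Top2a 1.43-fold (0.52, 0.09 to 0.94) and Bub1 1.26-fold (0.34, 0.14 to 0.53). Cenpf had 0.34 (0.13 to 0.54), Kif11 0.47 (0.12 to 0.83) and Cenpe 0.55 (0.06 to 1.04). Nusap1, Kif23 (a motor of the midbody), E2f8, Aurkb (the kinase of the chromosomal passenger complex) and Ccne2 had 0.34, 0.31, 0.30, 0.20 and 0.42. Among genes not in the 11, Cdk1 had -0.19 (-0.45 to 0.07), Cdc20 -0.10 (-0.47 to 0.26), Cks2 -0.01 (-0.18 to 0.17) and Ccnb2 0.04 (-0.11 to 0.18). Whether these differed from the 11 was not tested.

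**Figure D3:**
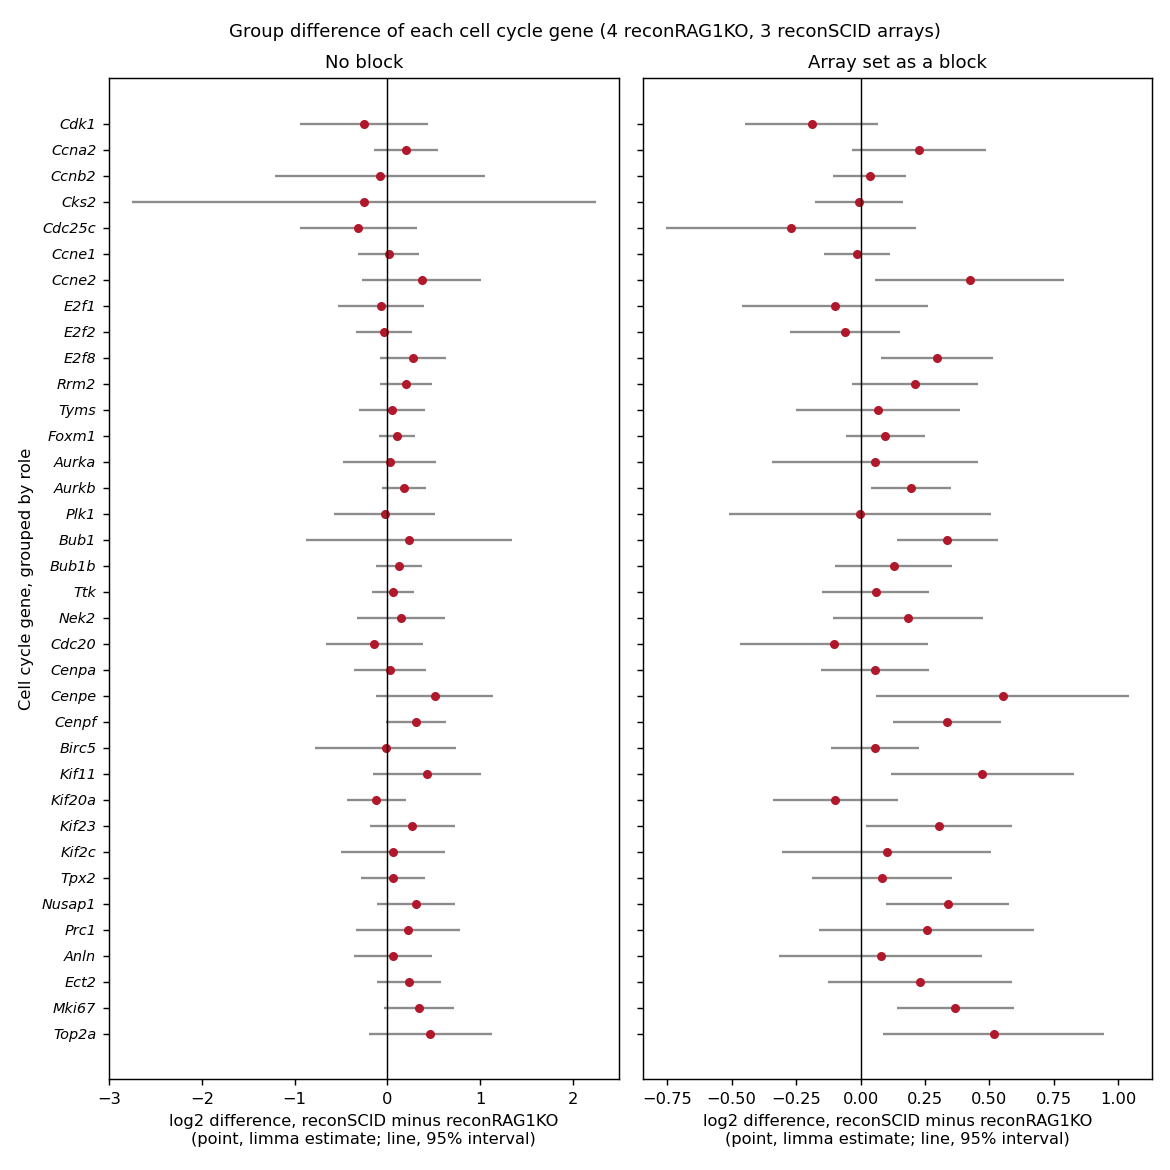
Log2 difference, reconSCID minus reconRAG1KO, of each of the 36 cell cycle genes with its 95% limma interval, without a block (left) and fitted with array sets as a block (right, narrower axis). All intervals on the left include 0, and 11 on the right lie above 0.

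The differences were also taken within each array set, and whether they differed between the sets was not tested. Within the larger set, 23 of 36 genes had a positive difference, as did 45.8% of all genes, and the median was 0.07. At an unadjusted p under 0.05, 6 were higher, where 7.65% of all genes were, and 1 was lower, where 7.78% were. The higher ones were Mki67, Bub1, Cenpf, Nusap1, Aurkb and Ccne2. The 1 lower gene was Plk1, named after its values were seen, with -0.31 in the larger set and 0.73 in the smaller. Its values were 8.45, 8.64, 8.60 and 7.76 in reconRAG1KO and 8.29, 8.48 and 8.22 in reconSCID. In the larger set the reconSCID values lay above all controls in 11 genes, where they did in 13.7% of all genes. These were the 11 genes of the blocked fit with Cenpa in place of Top2a. The reconSCID values lay below all controls in 3 genes (Ccne1, Plk1 and Cdc20), where they did in 18.1% of all genes. Within the smaller set, with 1 array a group and no test, 31 of 36 were higher in reconSCID, where 46.0% of all genes were, with a median of 0.35 against -0.01. Positive in both sets were 20 of 36 genes, against 22.0% of all genes, and negative in both were 2, Cdk1 and Cdc25c, against 28.7%.

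**Figure D4:**
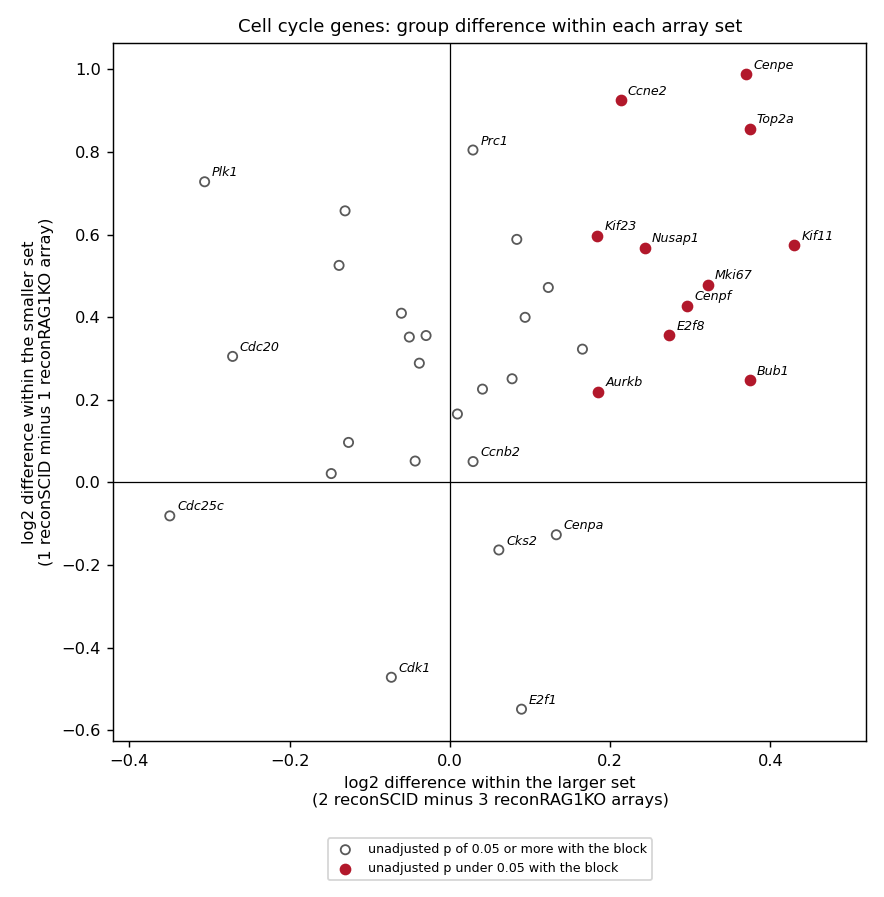
Log2 difference, reconSCID minus reconRAG1KO, of the 36 cell cycle genes within the larger array set (horizontal, 2 against 3 arrays) and within the smaller set (vertical, 1 against 1 array). Filled points are the 11 genes with an unadjusted p under 0.05 with the array set as a block, all positive on both axes. These genes were chosen by a fit that combines both axes, so their position is no separate support. Plk1 and Cdc20 are negative in the larger set and positive in the smaller.

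Leaving out single arrays changed how many of the 11 kept an unadjusted p under 0.05 in the blocked fit. In each such fit all 11 kept a positive difference. The 11 were chosen as positive and at that threshold in these same arrays, so neither a kept sign nor a kept p under 0.05 is separate support. Without reconSCID replicate 3, 5 of the 11 remained (Bub1, Ccne2, Cenpf, Mki67 and Nusap1) and no other gene joined, where 3.91% of all genes were higher at that threshold. ReconRAG1KO replicate 1 was alone the lowest of the larger set in 19 of 36 genes and in 13.5% of all genes. Without this array, 6 of the 11 remained (Bub1, Cenpf, E2f8, Kif11, Mki67 and Nusap1), where 3.92% of all genes were higher. Without either array of the smaller set the fit is that of the larger set, with 6 of the 11, where 7.65% of all genes were higher. Bub1, Cenpf, Mki67 and Nusap1 were in all of these lists. Without reconRAG1KO replicate 2, without replicate 3 and without reconSCID replicate 1, 12, 14 and 11 of the 36 genes were higher, where 3.82%, 3.97% and 5.56% of all genes were. These included 11, 11 and 10 of the 11 genes, and the rest had joined. Ccne2 was not kept without reconSCID replicate 1. Without the block and without reconRAG1KO replicate 4, the median of the 36 was 0.01 and 19 were positive. The median of all genes was then 0.02, with 56.3% positive. Without the block and without reconSCID replicate 2, the median of the 36 was 0.21 and 29 were positive. For all genes these were -0.04 and 40.3%.

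Markers of other cell types also differed between these arrays. With the array set as a block, 7 of 7 measured B cell markers had positive differences (median 0.92) and 0 of 12 epithelial markers did (median -0.56). Of thymocyte and T cell markers 9 of 12 were positive (median 0.06), of dendritic cell and macrophage markers 8 of 9 (median 0.19) and of neutrophil markers 0 of 5 (median -1.40). The log2 of the summed intensity of the B cell markers ran from 9.60 to 10.002 in reconRAG1KO and from 9.81 to 11.80 in reconSCID. That of the epithelial markers ran from 13.36 to 14.43 and from 12.46 to 14.25, that of thymocyte and T cell markers from 11.02 to 11.92 and from 10.74 to 12.27, and that of dendritic cell and macrophage markers from 12.74 to 13.43 and from 12.35 to 14.07. That of the neutrophil markers ran from 8.72 to 12.64 and from 8.25 to 10.14. Of 3 erythroid markers 1 was positive, of 7 endothelial and fibroblast markers 4 were, and no marker was at 0. ReconSCID replicate 3, alone the highest array in 16 of the 36 cell cycle genes, had B cell markers at a median of 1.73 and epithelial markers at -1.10 relative to reconRAG1KO replicates 1 to 3. The median of all 36 cell cycle genes was 0.09 there. By role group it ran from 0.01 (cytokinesis) to 0.31 (centromere and kinetochore) and 0.52 (mitotic chromosome). The 11 genes of the blocked fit, chosen as higher in reconSCID, were all highest in this array except Ccne2, where 15.3% of all genes were. In the smaller set the reconSCID array had higher cell cycle genes than the reconRAG1KO array (median 0.35) with thymocyte and T cell markers at -0.13, dendritic cell and macrophage markers at -0.17, epithelial markers at -0.16, neutrophil markers at -0.27 and B cell markers at 0.31. Endothelial and fibroblast markers were at 0.32 there, with 6 of 7 higher, and erythroid markers at -0.17. The part of these cell types in the cell cycle differences was not tested.

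**Figure D5:**
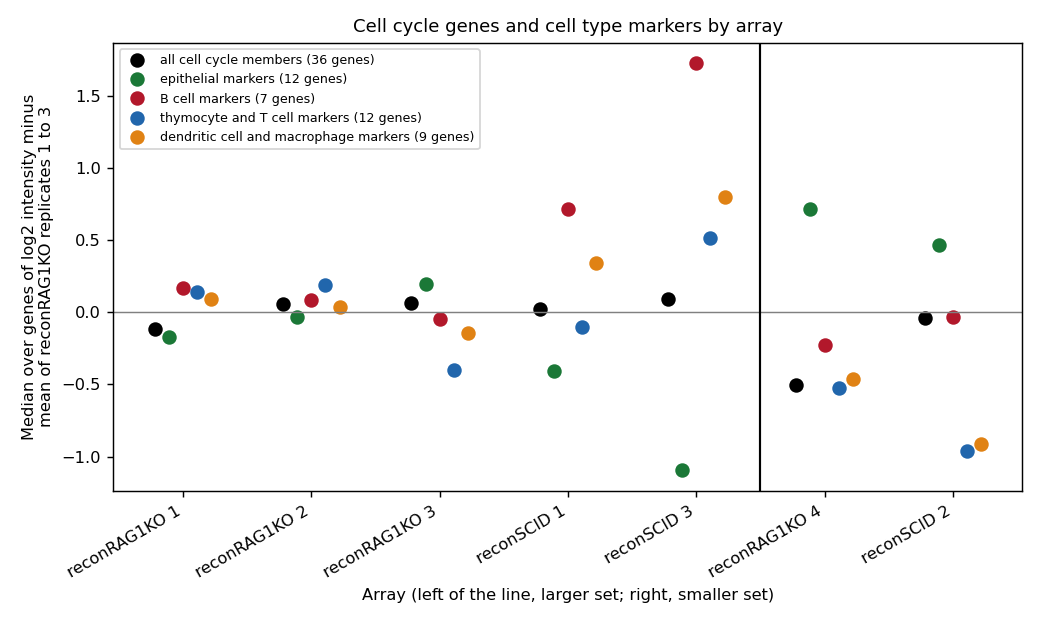
Median over genes of the log2 intensity of the 36 cell cycle genes and of 4 marker lists in each array, relative to the mean of reconRAG1KO replicates 1 to 3. In reconSCID replicate 3 the B cell markers stand at 1.73 and the epithelial markers at -1.10. The median of all 36 cell cycle genes stands at 0.09 there and at -0.51 in reconRAG1KO replicate 4, and role groups within the 36 are not drawn.

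The other genes of the cell cycle were counted in 3 lists, to be read against the 5.34% of all genes that were higher and the 6.75% that were lower with the block. Of 34 other mitotic genes, 26 had a positive difference (median 0.08), and with the block 28 did, 6 of them higher at an unadjusted p under 0.05 and 0 lower. Cep55, a protein of the last step of cytokinesis, measured 6.86, 7.14, 7.14 and 6.84 against 7.32, 7.14 and 7.56, a difference of 0.35 ± 0.14 (SE), or 0.37 with the block. Ckap2, a spindle protein gene, had the smallest unadjusted p of the negative ones, at -0.07 ± 0.13 (SE). Of 15 other genes of G1 and S phase, 7 were positive (median -0.02), and with the block 4 were higher and 0 lower at that threshold. Thymidine kinase Tk1 had 0.16 ± 0.09 (SE) and the S phase kinase gene Cdk2 had -0.06 ± 0.08 (SE). Of 21 inhibitors and repressors, 10 were positive, 10 negative and 1 at 0, and with the block 3 were higher and 2 lower at that threshold.

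Lin54, a DNA-binding subunit of the MuvB complex that silences these genes in resting cells and serves their activation in dividing ones, had the smallest unadjusted p among the positive genes of that list. It measured 7.93, 8.01, 7.81 and 7.80 in reconRAG1KO and 8.32, 8.22 and 8.39 in reconSCID, and every reconSCID value lay above every control, as in 1 of the 70 other cell cycle genes and 1.23% of all genes. Its difference was 0.43 ± 0.10 (SE), or 0.44 with the block, 0.44 in the larger set and 0.43 in the smaller, and its limma adjusted p was 1, or 0.2334 with the block. The kinase inhibitor gene Cdkn1c, the lowest of this list, measured 8.18, 8.14, 8.32 and 8.14 against 7.83, 8.19 and 7.55, a difference of -0.34 ± 0.16 (SE). ReconSCID replicates 1 and 3 lay below all controls and replicate 2 within them. By limma 0 of the 70 other cell cycle genes passed after adjustment, with or without the block.

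Promoters of these genes are shown because MuvB and NF-Y act on short motifs that many of them share. NF-Y binds CCAAT, and Lin54 binds the cell cycle homology region, searched as TTTGAA or TTCGAA, while E2F sites were searched as TTTCGCGC, TTTGGCGC, TTTCCCGC or TTTGCCGC, all on both strands, and none of these motifs contains another. Windows of 250 bases before an annotated start site, from RefSeq on GRCm38.p6, were held for 30 of the 37 genes. The first listed was taken where a gene had several. An annotated start can lie inside a gene, and whether each window is the promoter in use was not checked. CCAAT was found in 23 of 30 windows and in 34.5% of the 27025 windows of all genes. The homology region letters were found in 10 of 30 and in 17.4%, both together in 9 of 30 and in 6.21%, and E2F letters in 1 of 30 and in 1.91%. Of 56 windows of the other cell cycle genes, 57.1% held CCAAT and 28.6% the homology region letters. Both together were in 21.4% of those 56 windows, and E2F letters in 19.6%. The windows of 5 genes that hold CCAAT and the homology region are printed 5′ to 3′ with all of these motifs in capitals, 3 from the genes higher with the block (Mki67, Top2a and Kif11) and 2 from those that were not (Cdk1 and Cdc20). They lie at chr7:135716380-135716629 (minus strand), chr11:99024190-99024439 (minus strand), chr19:37376132-37376381 (plus strand), chr10:69352913-69353162 (minus strand) and chr4:118437344-118437593 (minus strand).
Mki67: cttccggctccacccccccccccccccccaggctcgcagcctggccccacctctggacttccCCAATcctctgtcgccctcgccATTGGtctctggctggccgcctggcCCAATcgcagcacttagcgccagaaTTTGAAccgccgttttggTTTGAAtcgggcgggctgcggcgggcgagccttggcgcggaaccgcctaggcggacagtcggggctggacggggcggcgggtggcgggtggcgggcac
Top2a: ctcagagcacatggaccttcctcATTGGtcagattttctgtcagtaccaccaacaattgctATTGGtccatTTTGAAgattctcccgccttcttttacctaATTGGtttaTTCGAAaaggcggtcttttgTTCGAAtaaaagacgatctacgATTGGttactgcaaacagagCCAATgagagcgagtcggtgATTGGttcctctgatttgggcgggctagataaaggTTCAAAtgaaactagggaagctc
Kif11: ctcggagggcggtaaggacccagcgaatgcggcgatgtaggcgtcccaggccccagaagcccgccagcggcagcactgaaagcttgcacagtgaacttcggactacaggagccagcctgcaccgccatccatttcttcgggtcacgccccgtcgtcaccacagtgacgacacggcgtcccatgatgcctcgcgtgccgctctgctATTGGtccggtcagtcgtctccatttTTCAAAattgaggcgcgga
Cdk1: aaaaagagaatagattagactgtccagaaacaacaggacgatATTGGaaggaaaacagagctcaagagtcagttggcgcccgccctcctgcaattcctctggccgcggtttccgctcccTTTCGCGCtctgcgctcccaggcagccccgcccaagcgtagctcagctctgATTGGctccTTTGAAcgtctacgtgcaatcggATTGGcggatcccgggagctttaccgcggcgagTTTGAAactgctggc
Cdc20: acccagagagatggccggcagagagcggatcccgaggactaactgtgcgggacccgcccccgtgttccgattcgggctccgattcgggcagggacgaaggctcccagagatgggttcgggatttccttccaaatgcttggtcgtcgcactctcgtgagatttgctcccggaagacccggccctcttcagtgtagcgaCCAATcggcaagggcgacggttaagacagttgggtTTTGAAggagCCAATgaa
The Cdk1 window is the 1 with E2F letters. The 9 genes with both motifs had a median blocked difference of 0.23 and ran from -0.19 to 0.52, and the 20 other measured genes with a window had a median of 0.07 and ran from -0.10 to 0.55. The ranges overlapped, and genes such as Bub1 and Cenpf, with no homology region letters in the window, were among the 11 higher ones. A match in letters does not show that a factor binds there.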

How the data were processed

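RNA of 4 reconRAG1KO and 3 reconSCID samples was measured on arrays. The authors deposited 1 linear intensity for each of 34760 probe sets and sample. How they summarised probes and levelled the arrays is not stated in the labels or the table. As 0 values were below 1, log2 needed no pseudocount. A single gene symbol was annotated for 21640 probe sets, several for 1321, and 11799 had no entry. Exactly equal values in at least 2 arrays occurred in 46.2% of probe sets and in 15 of the 36 cell cycle genes, which can make the spread look smaller.

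All probe sets were fitted together by limma (version 3.58.1, R 4.3.3; lmFit, eBayes), with two-sided tests, Benjamini-Hochberg adjusted p-values called under 0.05, and 95% intervals. Array sets came from average-linkage clustering of the correlations between arrays. The fit was also run on simulated data with planted changes larger than any group difference printed for a cell cycle gene. The outcome is not printed here and is not used as support. The power of the fit for smaller differences was not tested. Values in every array are printed for the gene with the highest mean level and the gene with the largest absolute difference of each role group, and for Mki67, Top2a and Cdk1. Each other list is represented by the gene with the smallest unadjusted p in each direction. Genes outside this rule were chosen after their values were seen, and the members and lists were chosen with earlier results of these data known. Replicate numbers were not taken as pairs. The alternatives are named in the closing section. Leaving out samples in the blocked fit, and the block at an unadjusted threshold, were added after seeing the data.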

Additional observations from a re-analysis of the deposited data

Results flagged for a closer look

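Within reconRAG1KO, replicate 4 lay far from the other 3 controls in 8 of the 36 cell cycle genes, by the gap to the nearest control as a share of the group's range. Chance alone sets such a sample apart in about 1 in 20 groups of 4, and the genes are not independent, since 1 array gave all 8. It measured 7.43 for Ccnb2 (nearest control 8.72), 5.62 for Cks2 (8.49), 6.09 for Bub1 (7.30), 7.02 for Birc5 (7.93) and 5.09 for Ccne2 (5.96). It was also apart by small amounts, at 8.19 for Cenpa (8.44 in each of the other 3), 7.82 for Ccne1 (7.55) and 6.83 for Foxm1 (6.85). ReconSCID replicate 2, of the same array set, was likewise low for Ccnb2 (7.48), Cks2 (5.46) and Bub1 (6.33). The cause was not tested.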

How the results depend on the processing

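No adjusted call of a probe set or gene was made in the fit as reported, with quantile normalization, centring on array medians, a pseudocount of 16, a filter on low values, the replicate number as a block, the array set as a block, the larger set alone, a trend with robust fit, the mean of a gene's probe sets, or any fit without 1 sample (0 to 0 calls). Array weights called 57 probe sets, 47 higher and 10 lower, and 0 cell cycle genes. At an unadjusted p under 0.05, 1159 probe sets passed (765 higher and 394 lower, or 748 and 582 after quantile normalization) and, if array sets were a block, 4276. Of the 36 cell cycle genes 0 and 11 then passed, where 2.05% and 12.1% of all genes did, and the 11 were all higher. Of the 70 other cell cycle genes 2 and 15 passed, the 2 higher and the 15 made up of 13 higher and 2 lower. The median difference of the 36 genes, 0.08, ran from 0.01 to 0.21 without 1 sample, and was 0.05 with array weights, 0.09 after quantile normalization and 0.01 with the replicate number as a block. In that last fit 19 of the 36 were positive, against 56.3% of all genes, whose median was 0.02. Deviations of same-numbered samples from their group means correlated at 0.47, -0.51 and 0.31 for replicates 1, 2 and 3. Replicate 2 lay in the larger array set in reconRAG1KO and in the smaller set in reconSCID. These values therefore cannot show whether the numbers pair samples, and the numbers were not taken as pairs.

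Some differences of named genes turned sign, and the cause was not tested. Ranges without 1 sample cover the fits with and without the array set block. Bub1 was -0.085 with the replicate block and ranged from -0.085 to 0.69. Ccnb2 was 0.035 with the block of array sets, 0.029 in the larger set and 0.0029 with array weights (-0.42 to 0.37). Birc5 was 0.055 with the block of array sets and 0.0094 in the larger set (-0.26 to 0.25). Ccne1 was -0.0027 after median centring, -0.015 with the block of array sets, -0.043 in the larger set and -0.040 with array weights (-0.11 to 0.083). Cks2 was 0.061 in the larger set and 0.028 with array weights (-0.98 to 0.78). With the replicate block, in the larger set and with array weights, Aurka was -0.15, -0.14 and -0.12 (-0.15 to 0.14), E2f1 0.10, 0.089 and 0.065 (-0.18 to 0.10), Tyms -0.045, -0.051 and -0.18 (-0.051 to 0.23) and Anln -0.056, -0.061 and -0.058 (-0.061 to 0.16). Tpx2 was -0.045 with the replicate block and -0.030 in the larger set (-0.045 to 0.15), and Ttk -0.038 in the larger set and -0.027 with array weights (-0.038 to 0.096). Cenpa was -0.037 with the replicate block (-0.12 to 0.20), and Plk1 0.0036 after quantile normalization (-0.31 to 0.13). E2f2, Cdk1 and Ckap2 turned only without 1 sample, with ranges of -0.16 to 0.077, -0.43 to 0.071 and -0.16 to 0.0080. Cdc20 ran from -0.32 to 0.0029 and was positive only in the blocked fit without reconSCID replicate 3. The other cell cycle genes whose differences are printed kept their sign in all of these fits.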
